A study of Mus musculus with 15 samples.

Results

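The comparison described here is the test of the degrader compound alone: untagged wild-type mouse embryonic stem cells (mESCs) given dTAG-13 against the same cells left nontreated. It was chosen by its labels, genotype WT with and without dTAG-13, and holds 6 of the 15 libraries of the series, 3 in each group. The cells were the established line E14, grown on gelatin without a feeder layer in 2i/LIF, a medium that blocks the kinases MEK and GSK3 and supplies LIF so that the cells stay naive. The treated group had 500 nM dTAG-13 for 72 h and the control group is labelled as not treated, with no vehicle named. Neither group carries a degron tag. The remaining libraries come from a line with a dTAG knocked in at NSD1, and 6 of them, embryoid bodies (EBs) grown for 6 days with or without 500 nM dTAG-13, are set beside the wild-type cells at the end. The labels call the 3 libraries of a group biological replicates and say no more of their origin, so the p-values describe only how these particular libraries scatter, which may be technical.

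dTAG-13 is a molecule with 2 binding ends. One end binds a mutant form of FKBP12 that serves as the degron tag, and the other binds cereblon, the substrate receptor of the CUL4-DDB1 ubiquitin ligase, so that a tagged protein is ubiquitinated and sent to the proteasome. The unmutated FKBP12 is the product of Fkbp1a. Ligands of cereblon can also recruit proteins that are not its usual targets, such as the translation termination factor GSPT1 or zinc-finger proteins of the IKZF and SALL families. RNA levels do not report the loss of a protein, so the libraries show only what follows in the transcriptome. In untagged cells the compound has no tagged target, and the comparison asks which RNA levels move with it when no tagged protein is present.

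Gene counts summed to between 18704591 and 27974979 per library. Nontreated replicate 1 and dTAG-13 replicate 3 stood apart from the other 4 libraries, and they stood apart in the same way although they belong to different groups. On the first principal component, which held 53.4% of the variance, they scored -10.3 and -23.2 against 6.47 to 9.45 in the other 4. Ribosomal protein genes took 6.24% and 6.40% of their counts against 5.16% to 5.20%, and the mean exon length of the genes, weighted by their counts, was 5.43 and 5.25 kb against 5.71 to 5.73 kb. Results are therefore given with all 6 libraries and again with nontreated replicates 2 and 3 against dTAG-13 replicates 1 and 2.

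The stem cell identity given by the labels matched the markers in every library. Levels are given in CPM, a gene's counts scaled to a common library total. Pou5f1, which encodes OCT4, had 1044, 972 and 943 CPM in the nontreated libraries and 1001, 985 and 1059 with dTAG-13. The naive-state regulator Esrrb was at 633, 735 and 698 CPM against 696, 725 and 642, and Zfp42, which encodes REX1, at 563, 518 and 523 against 526, 519.9 and 552. The groups overlapped for all 3 markers. Of the 14 fibroblast and feeder markers, 5 had no count in any library, among them the collagen gene Col3a1 and decorin, Dcn. The summed level of that list, 1147 to 1627 CPM nontreated and 855 to 1592 CPM with dTAG-13, was nearly all fibronectin, Fn1. Fn1 had 1141, 1575 and 1621 CPM nontreated and 1586, 1577 and 850.1 with dTAG-13, low in both libraries that stood apart. In bulk RNA, fewer cells of a type and less RNA per cell cannot be told apart.

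No gene of the wild-type stem cells was called changed by 72 h of dTAG-13. Of 13784 genes tested with edgeR's quasi-likelihood F test, 0 (0%) had a Benjamini-Hochberg adjusted p below 0.05, and the smallest adjusted p was 1.00. An unadjusted p below 0.05 was found for 229 genes, 1.66% of those tested. DESeq2 called 0 genes, with 79 at an unadjusted p below 0.05, and limma-voom called 0, with 243. The absolute log2 fold change of a gene had a median of 0.056. Values lay above 0 for 6435 genes and below 0 for 7349, with a median log2 fold change of -0.01. The tested genes held 99.9% of all gene counts.

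**Figure D1:**
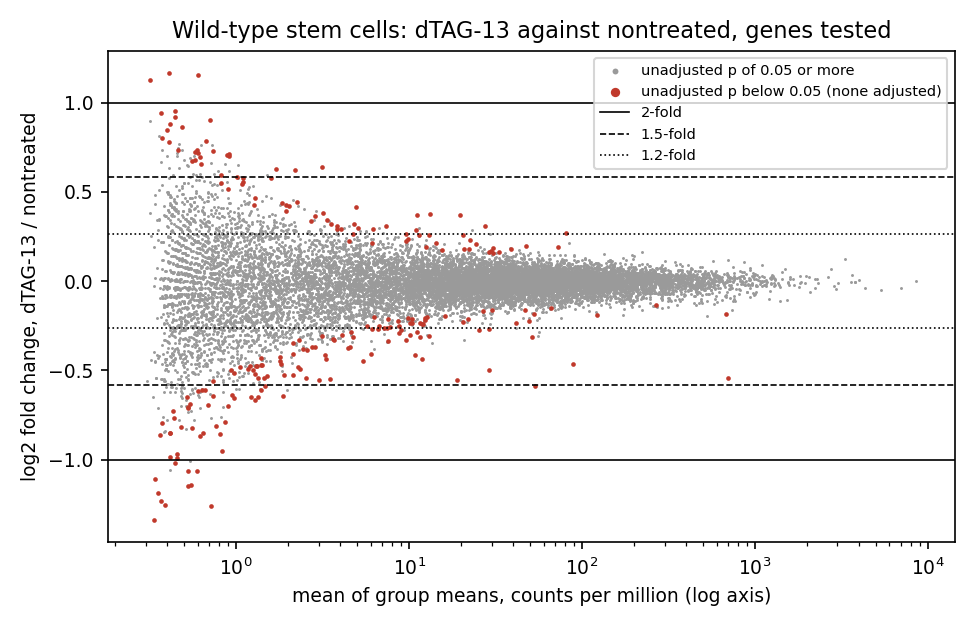
Log2 fold change of dTAG-13 over nontreated wild-type stem cells (vertical axis) against the mean level in CPM (horizontal log axis), 1 point per tested gene (n = 3 libraries per group). Lines mark 1.2-fold, 1.5-fold and 2-fold, red points have an unadjusted p below 0.05, and the scatter narrows from low to high counts.

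A p that misses the threshold does not show that a gene kept its level, so each fold change was also tested against a bound. A change was counted as excluded when 2 one-sided tests placed it inside the bound, with p-values adjusted over all tested genes. A change of 2-fold or more in either direction was excluded for 13287 genes (96.4%) and a change of 1.5-fold for 11401 (82.7%). A change of 1.2-fold was excluded for 4733 genes (34.3%). This last count depended on the libraries used: it was 8203 of 13861 genes without nontreated replicate 1 and dTAG-13 replicate 3. Without dTAG-13 replicate 3 alone it was 6116, and it was 0 when any other single library was left out.

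Agreement between the groups followed the number of counts. For the 84 genes at 1000 CPM or more, the median absolute log2 fold change was 0.021, and 95% of them lay within 0.086. The 2425 genes from 100 to 1000 CPM had a median of 0.029 and the 6112 genes from 10 to 100 CPM a median of 0.045. It was 0.105 for the 3433 genes from 1 to 10 CPM and 0.217 for the 1730 genes under 1 CPM. The spread between libraries of 1 group showed the same order: the median within-group SD of log2 CPM was 0.076, 0.088, 0.104, 0.160 and 0.205 from the highest class to the lowest. The median difference between groups was smaller than this SD in every class except under 1 CPM, where it was 0.217 against 0.205. The SD is that of single libraries, with 0.5 CPM added before the log, and the difference is edgeR's estimate between groups. These measures are unlike, so their order says nothing of an effect. An estimate past 1.5-fold was reached by 157 genes, 141 of them under 1 CPM, and past 2-fold by 16, all under 1 CPM.

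A 2-fold change was excluded for every gene of the 3 classes at 10 CPM or more. From 1 to 10 CPM it was excluded for 3398 of 3433 genes and under 1 CPM for 1268 of 1730. A 1.5-fold change was excluded for 84 of 84 genes at 1000 CPM or more, for 2407 of 2425 in the class below and for 6060 of 6112 in the next. The shares were lower at low counts, with 78.2% from 1 to 10 CPM and 9.54% under 1 CPM. The 95% interval of the median gene reached to 1.13-fold at 1000 CPM or more, 1.15-fold from 100 to 1000 CPM and 1.19-fold from 10 to 100 CPM. It reached to 1.39-fold from 1 to 10 CPM and to 1.91-fold under 1 CPM.

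The other 2 treatments of the data moved these limits in different directions. Without nontreated replicate 1 and dTAG-13 replicate 3, a 1.2-fold change was excluded for 84 of 84, 2423 of 2425 and 5491 of 6112 genes in the 3 classes from 10 CPM upward. The interval of the median gene there reached to 1.04-fold, 1.06-fold and 1.12-fold. Under 1 CPM the limits were wider with 4 libraries than with 6: a 2-fold change was excluded for 1007 of 1807 genes, and the median interval reached to 2.13-fold. With all 6 libraries scaled to the spike-ins described further on, the median intervals reached to 1.27-fold at 1000 CPM or more, 1.29-fold in the next class, 1.44-fold from 1 to 10 CPM and 1.89-fold under 1 CPM.

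**Figure D2:**
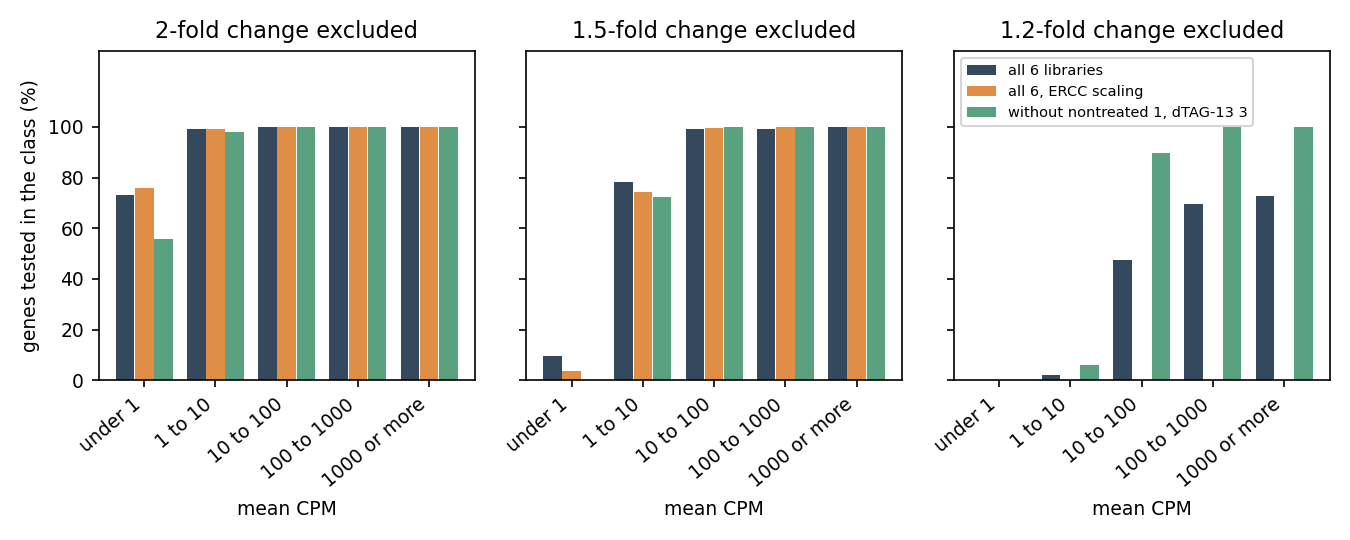
Share of tested genes in each class of mean CPM (vertical axis, percent) for which a 2-fold, 1.5-fold or 1.2-fold change was excluded, with all 6 libraries, with all 6 scaled to spike-ins and without the libraries that stood apart. At 10 CPM or more all bars for 2-fold reach 100%, and for 1.2-fold there is no bar under spike-in scaling, where the count is 0.

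Single genes show how close the libraries were. Hsp90ab1, a cytosolic chaperone gene, had 8879.7, 8547 and 8282 CPM nontreated and 8591, 8382 and 8749 with dTAG-13, a log2 fold change of 0.00 ± 0.05 (SE). Its 95% interval, -0.11 to 0.12, excludes a change beyond 1.08-fold. Uqcrc2, a subunit of mitochondrial complex III, was at 236, 238 and 235 CPM against 236, 235 and 235. Prpf19, a splicing factor, was at 339, 339.7 and 337 CPM against 336, 337 and 335. These last genes had among the 5 smallest SDs over the 6 libraries at 100 CPM or more, so their tightness is a description of that choice. Uqcrc2 overlaps Pdzd9 on the opposite strand.

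Of the 2509 genes at 100 CPM or more, 18 did not exclude a 1.5-fold change, and 17 of them are protein-coding genes with long transcripts. Huwe1, a HECT ubiquitin ligase whose exons span 23.5 kb, had 594, 867 and 878 CPM nontreated and 857, 855 and 374 with dTAG-13. Usp9x, a deubiquitinase, had 444, 619.8 and 632 CPM against 613, 603 and 265, and Dst, a cytoskeletal linker, 208, 296 and 319 against 308, 314 and 125. Nontreated replicate 1 was the lowest of its group and dTAG-13 replicate 3 the lowest of its own for each of these 3 genes. Without these 2 libraries the log2 fold changes were -0.03 for Huwe1, -0.04 for Usp9x and 0.02 for Dst, and all 18 genes excluded a 1.5-fold change.

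Gene length parted the same libraries. In nontreated replicate 1 the median deviation of log2 CPM from the mean of the 6 libraries was 0.10 for genes with under 1 kb of exons and -0.08 for those of 8 kb or more. In dTAG-13 replicate 3 it was 0.12 and -0.20. The other 4 libraries lay between -0.06 and -0.03 for the short genes and between 0.06 and 0.09 for the long ones. After a length trend was removed from each library, a 1.2-fold change was excluded for 7350 genes and a 1.5-fold change for 11520, and 0 genes were called. The libraries' origin in separate cultures, extractions or runs is not given by the labels, so what sets these 2 apart was not tested.

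**Figure D3:**
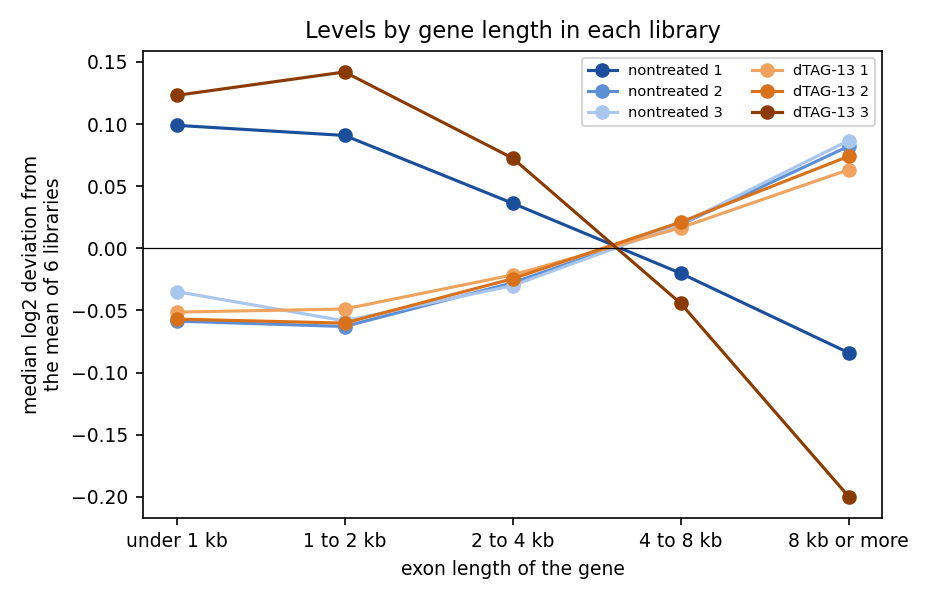
Median deviation of log2 CPM from the mean of the 6 libraries (vertical axis) by exon length of the gene (horizontal axis), 1 line per library. Nontreated replicate 1 and dTAG-13 replicate 3 slope downward, to -0.08 and -0.20 at 8 kb or more, and the other 4 lines slope upward together.

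The 4 remaining libraries differed little more than by counting. For each pair of libraries, the dispersion of counts around equal proportions was summarised as chi-square per degree of freedom, which is 1 for sampling noise alone. It was 1.65 for nontreated replicates 2 and 3 and 1.52 for dTAG-13 replicates 1 and 2. Across the groups the same 4 libraries gave 1.65 to 2.02. No pair agreed within sampling noise, and all libraries were counted as separate samples. Spread beyond counting cannot tell separate cultures from repeat preparations of the same RNA. Nontreated replicate 1 against these 4 gave 13.7 to 15.5, dTAG-13 replicate 3 gave 26.2 to 29.7, and these 2 against each other gave 7.19. The biological coefficient of variation common to all genes was 8.89% with 6 libraries and 1.77% without these 2.

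**Figure D4:**
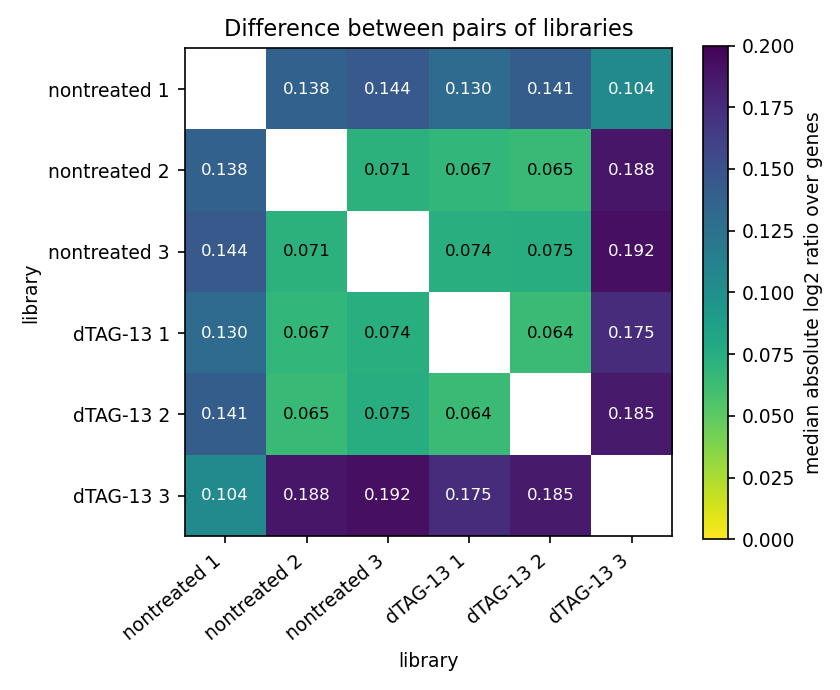
Median over tested genes of the absolute log2 ratio of CPM for each pair of wild-type libraries (color and number). The 4 libraries nontreated 2 and 3 and dTAG-13 1 and 2 differ by 0.064 to 0.075 within and across groups, nontreated 1 differs from them by 0.130 to 0.144 and dTAG-13 3 by 0.175 to 0.192.

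ERCC spike-ins, synthetic RNAs added to the extracted total RNA, allow levels to be set against a constant amount in place of the sum of all genes. They made up 0.373%, 0.342% and 0.293% of the counts in nontreated libraries and 0.329%, 0.310% and 0.320% with dTAG-13. The groups overlapped, and the difference gave p = 0.6 in an exact two-sided permutation test (n = 3 per group, smallest possible p 0.1). Of 92 spike-ins, 41 had at least 60 counts over the 6 libraries. Their median log2 ratio of dTAG-13 over nontreated was -0.08, and 31 of the 41 lay below 0. Without nontreated replicate 1 and dTAG-13 replicate 3 the ratio of the summed spike-in counts was 0.01 on the log2 scale.

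With all 6 libraries, scaling to the spike-ins moved the log2 fold changes upward. The median log2 fold change went from -0.01 to 0.06, and the share of genes above 0 from 46.7% to 75.6%. Again 0 genes were called, with 162 at an unadjusted p below 0.05. A 2-fold change was excluded for 13345 genes and a 1.5-fold change for 11219, but a 1.2-fold change for 0. The median SE was 0.156 in place of 0.105, and the spike-in factors ranged from 0.897 to 1.14 among the nontreated libraries and from 0.947 to 1.01 among the treated. With spike-in scaling and without the 2 libraries that stood apart, 0 genes were called, with a 2-fold change excluded for 12852 genes and a 1.5-fold change for 10656. The upward shift was absent there. The median log2 fold change was -0.01, and 43.3% of genes lay above 0, against 49.8% without spike-in scaling of the same libraries. Differences near 0 change sign with spike-in scaling of all 6 libraries, as 40 of the 156 genes given by the naming rule or taken up beside it did. Counts of genes above 0 are therefore given for both scalings for all genes and for the Wnt, formative epiblast and glycolysis lists.

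The genes of the degrader's own machinery were measured next, starting with the study's target. Nsd1, which encodes an H3K36 methyltransferase, lies on GRCm38 chromosome 13 from 55209782 to 55318325. It had 311, 398 and 387 CPM nontreated and 393, 394 and 245 with dTAG-13, so the groups overlapped and the low values were those of the 2 libraries that stood apart. The log2 fold change was -0.09 ± 0.18 (SE), with a 95% interval of -0.50 to 0.33, and it was 0.00 without these 2 libraries. All 18 genes of the H3K36 methylation list were tested, and all 18 excluded a 1.5-fold change. Their log2 fold changes ran from -0.14 for Setd2, the enzyme of H3K36 trimethylation, to 0.12 for Phf19 and Phf1, readers of that mark, with a median of -0.03 against -0.01 over all genes.

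Fkbp1a on chromosome 2, from 151542483 to 151561692, had 399, 353 and 355 CPM nontreated and 365, 360.4 and 414 with dTAG-13. Its log2 fold change was 0.04 ± 0.08 (SE), and its interval excluded changes beyond 1.17-fold. All 15 tested FKBP genes excluded a 1.5-fold change. They ranged from -0.26 for Fkbp1b, a second small FKBP at 2.19 to 2.48 CPM nontreated and 1.76 to 2.25 with dTAG-13, to 0.19 for Fkbp2. Fkbp4, an HSP90 cochaperone, was at 1006, 942 and 945 CPM against 989, 946 and 1054.

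Crbn, the gene of cereblon, on chromosome 6 from 106780201 to 106800077, had 39.4, 39.3 and 38.7 CPM against 40.5, 40.9 and 34.6. Its log2 fold change was -0.02 ± 0.08 (SE). It overlaps Trnt1 on the opposite strand, and which strand was counted is not stated, so part of these counts may be those of Trnt1. The ligase's adaptor Ddb1 had 1275, 1323 and 1321 CPM against 1323, 1319 and 1200.2. All 11 genes of the cereblon ligase list excluded a 1.5-fold change, with log2 fold changes between -0.07 and 0.09. For 7 of them a 1.2-fold change was excluded as well. The 32 proteasome subunit genes lay between -0.06 and 0.06, and all excluded a 1.5-fold change. Psmd2, a subunit of the regulatory particle, had 629, 630.0 and 629.9 CPM against 644, 630.5 and 631.

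Cereblon ligands act on proteins, and the RNA of the genes concerned showed no called change. Of 14 such genes 12 were tested, 0 were called, and 11 excluded a 1.5-fold change. Gspt1 had 399, 405 and 408 CPM nontreated and 406, 403 and 378 with dTAG-13. Csnk1a1, which encodes casein kinase 1 alpha, had 542, 551 and 543 against 533, 542 and 534. Sall4 had 266, 286 and 280.2 against 288, 284 and 274. Ikzf1 and Ikzf3, the lymphoid targets of such ligands, were at most at 0.233 CPM in any library and were not tested. Gspt1 overlaps a gene model on the opposite strand.

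No gene of the pluripotency network was called, and its intervals were narrow. Sox2 had 620.1, 564 and 609 CPM nontreated and 585, 564 and 643 with dTAG-13. Nanog had 639, 563 and 575 against 565, 567 and 672, and Klf4, a LIF target, 329.6, 326 and 336 against 338, 323 and 333. The groups overlapped for all 3 genes. All 16 naive pluripotency genes and all 10 core genes excluded a 1.5-fold change, and 12 and 9 of them excluded a 1.2-fold change. Their log2 fold changes lay between -0.08 and 0.07 for the naive list and between -0.08 and 0.09 for the core list, with medians of 0.01 each. The summed level of the naive list was 5153 to 5214 CPM nontreated and 5155 to 5201 CPM with dTAG-13.

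No gene of the stress lists was called. Of the 20 tested p53 targets, 0 were called and 19 excluded a 1.5-fold change. Ccng1, the gene of cyclin G1, had 239.8, 238 and 244 CPM against 232, 223 and 234. Of the 19 tested targets of the integrated stress response 17 excluded a 1.5-fold change and all 19 a 2-fold change. The lowest log2 fold change of that list was -0.35, in Atf3. Asns, asparagine synthetase, had 771, 733 and 729 CPM against 724, 710.2 and 802. All 14 genes of the unfolded protein and heat shock list excluded a 1.5-fold change, as did all 11 genes of the NRF2 list. All 23 cell cycle genes excluded a 2-fold change and 22 a 1.5-fold change. The remaining gene was Mki67, at 235, 305 and 298 CPM nontreated and 299.7, 312 and 152 with dTAG-13.

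The xenobiotic list, of genes that cells use against foreign compounds, had 10 of 14 members tested and 0 called. Its 2 lowest unadjusted p-values belonged to targets of the aryl hydrocarbon receptor. Cyp1b1 had 1.62, 1.43 and 1.66 CPM nontreated and 2.32, 2.28 and 1.74 with dTAG-13, a log2 fold change of 0.44 ± 0.17 (SE, unadjusted p = 0.0315, edgeR). Cyp1a1 had 8.40, 9.07 and 8.50 CPM against 11.3, 9.01 and 10.9, a log2 fold change of 0.27 (unadjusted p = 0.0361, edgeR). For Cyp1b1 the groups did not overlap, and for Cyp1a1 they did. Non-overlap of this kind was found for 418 genes that lay higher (3.03% of those tested) and 410 that lay lower (2.97%). For genes named for a small p, here and below, non-overlap largely follows from that choice. The drug efflux pump gene Abcc4, at 127, 152 and 150.2 CPM against 149, 152 and 111, overlapped between groups.

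No lineage gene was called with all 6 libraries. Of the streak and mesendoderm list 8 of 14 genes were tested and 0 called, with a median log2 fold change of 0.02. The 3 genes with an unadjusted p below 0.05, T, Sp5 and Evx1, all lay higher, while Mixl1 (-0.29) and Lefty2 (-0.07) lay lower. T, the gene of brachyury, had 19.4, 14.6 and 17.9 CPM nontreated and 21.9, 21.2 and 24.0 with dTAG-13, without overlap, a log2 fold change of 0.37 ± 0.11 (SE, unadjusted p = 0.0102, edgeR). Sp5, a Wnt-responsive factor, had 76.9, 66.1 and 76.4 CPM against 83.5, 77.5 and 104, a log2 fold change of 0.27 ± 0.12. Evx1 had 1.36, 1.32 and 1.12 CPM against 2.32, 2.03 and 1.36. Evx1 overlaps Evx1os on the opposite strand. Cdx2, a caudal factor of trophoblast and posterior embryo, had 2.66, 2.05 and 2.62 CPM against 4.23, 2.86 and 4.28, also without overlap. The log2 fold change of Cdx2 was 0.64 ± 0.19 (SE, unadjusted p = 0.00977, edgeR), with an interval of 0.20 to 1.08 that reaches past 2-fold. Of the 5 tested trophoblast genes 3 lay below 0, with a median of -0.09, 0 called and the lowest value, -0.53, in Ascl2.

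Of the 14 tested Wnt targets, 9 lay above 0 (12 with spike-in scaling), with a median of 0.07 and 0 called. Axin2, the feedback scaffold of the pathway, had 112, 121 and 127 CPM against 132, 128 and 122, a log2 fold change of 0.09 ± 0.07 (SE) that excluded changes beyond 1.18-fold. It overlaps a gene model on the opposite strand. Of the formative epiblast list 1 of 11 tested genes lay above 0 (3 with spike-in scaling), with a median of -0.17 and 0 called. Zic2 had 51.9, 60.2 and 56.7 CPM against 49.9, 50.5 and 48.2, without overlap, and Otx2 had 6.79, 6.36 and 6.90 against 5.99, 6.23 and 5.51. Over all tested genes 46.7% lay above 0, and 75.6% with spike-in scaling, both with all 6 libraries. That spike-in share was 43.3% without the 2 libraries that stood apart. The lists share genes, such as Sp5, Lef1 and Cdx2. Genes of the 2-cell-like state, such as the Zscan4 family, summed to at most 0.61 CPM in any library, and none of the 18 matched members was tested.

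The glycolysis and hypoxia list had 4 of 19 tested genes above 0 (13 with spike-in scaling), a median of -0.04 and 0 called. Bnip3, a hypoxia-responsive mitophagy gene, had 33.1, 31.1 and 30.8 CPM against 23.5, 28.7 and 26.9, without overlap, a log2 fold change of -0.27 ± 0.09 (SE, unadjusted p = 0.0147, edgeR). The FGF and ERK list, immediate-early genes and feedback inhibitors whose pathway is blocked in this medium, had 0 of 14 called. Fos had 12.8, 11.8 and 14.2 CPM against 11.3, 9.96 and 11.5, without overlap, and Myc had 31.0, 32.4 and 30.1 against 34.1, 34.0 and 36.9, also without overlap. These values lay in opposite directions, with log2 fold changes of -0.24 for Fos and 0.16 for Myc.

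The smallest unadjusted p of all tested genes was that of Slc16a3, which encodes the lactate exporter MCT4. It was at 56.2, 55.9 and 59.6 CPM nontreated and 44.4, 48.0 and 45.7 with dTAG-13, without overlap, a log2 fold change of -0.31 ± 0.06 (SE, unadjusted p = 0.00109, edgeR). Casq2, a calsequestrin, had 24.0, 23.6 and 25.7 CPM against 30.5, 28.4 and 31.8, a log2 fold change of 0.31 ± 0.07. Gas2, a growth arrest gene that overlaps Fancf on the opposite strand, had 2.44, 2.21 and 2.14 CPM against 1.54, 1.37 and 1.44, and Adgrg1, an adhesion receptor, 10.7, 10.6 and 10.6 against 8.88, 7.80 and 8.78. The 8 genes with the smallest p on each side, at 1 CPM or more, ran from 0.26 to 0.64 and from -0.65 to -0.31. After adjustment with edgeR none of them was called.

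Without nontreated replicate 1 and dTAG-13 replicate 3, where the estimated spread was much smaller, 16 of 13861 genes (0.115%) were called, 4 higher and 12 lower with dTAG-13. An unadjusted p below 0.05 was found for 893 genes, 6.44% of those tested, against 1.66% with all 6 libraries (edgeR). None of the 16 changed by 1.5-fold, and their absolute log2 fold changes ran from 0.12 to 0.46. With all 6 libraries the 16 had the same direction, and 10 of them had an unadjusted p below 0.05. The 4 libraries that gave the calls are among these 6, so both values largely follow from that choice. With spike-in scaling of the same 4 libraries 0 genes were called. This comparison has 2 libraries a group, and its spread is estimated from 4 libraries.

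Higher in that comparison were T (log2 fold change 0.43, adjusted p = 0.0106, edgeR), Slc16a9, a monocarboxylate transporter family gene, Cd63, a tetraspanin of endosomes, and Ptgr1, a prostaglandin reductase. Slc16a3 was lower (log2 fold change -0.32, adjusted p = 0.000894, edgeR). Also lower were the transferrin receptor gene Tfrc (-0.17), the Nodal antagonist Lefty1 (-0.36), Igfbp2, Myh10, Upp1, Zic2 and the mitochondrial mt-Cytb (-0.12). Tfrc had 693, 725 and 748 CPM nontreated and 654, 655 and 598 with dTAG-13, without overlap in all 6. Lefty1 had 67.5, 52.9 and 65.1 CPM against 48.3, 42.2 and 61.4, with overlap in all 6. The last 4 lower genes, Lars2, Mir6236, Gm42418 and Gm23935, had their highest level in nontreated replicate 1, as did Lefty1, Igfbp2 and Upp1. Gm42418, Gm23935 and Ptgr1 fell outside the rule for naming genes and were taken up after their values were seen.

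Gm42418, on chromosome 17 from 39846958 to 39848788, lies at a genomic copy of 45S ribosomal RNA and overlaps AY036118 on the opposite strand. It had 1155, 677 and 649 CPM nontreated and 533, 525 and 647 with dTAG-13, and the smallest adjusted p of the 16, 2.21e-10 (edgeR) without the 2 libraries. Lars2, annotated as the mitochondrial leucyl-tRNA synthetase, had 132, 88.2 and 89.5 CPM against 73.9, 69.4 and 81.8. Mir6236 had 87.0, 56.1 and 49.5 CPM against 41.5, 41.9 and 45.1. How much ribosomal RNA remained in each library was not tested.

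Genes seen in 1 group only were at the limit of detection. Of the genes left out of the test, 61 had at least 1 count in each nontreated library and none with dTAG-13, and 85 the reverse. None of these 146 genes had more than 15 counts in all. The largest was Saa3, an acute phase gene, with 0 counts nontreated and 3, 2 and 10 with dTAG-13. A count of 0 over a group allows up to 0.0413 CPM nontreated and 0.0404 CPM with dTAG-13, for counting error only.

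By chromosome and by type of gene, 0 genes were called in each. The median log2 fold change by chromosome ran from -0.02 on X to 0.00 on 19 among the autosomes and X. Of 12271 protein-coding genes 97.7% excluded a 2-fold change and 87.7% a 1.5-fold change. For 573 long noncoding RNAs the shares were 87.8% and 47.5%, and for 748 pseudogenes 85.4% and 41.3%, at median levels of 1.17 and 0.937 CPM against 27.5 CPM for protein-coding genes. Of 86 tested ribosomal protein genes 85 excluded a 1.5-fold change. The 13 tested mitochondrially encoded genes had a median of -0.01, and of -0.10 without the 2 libraries that stood apart, where mt-Cytb was called.

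The wild-type cells can be set beside the embryoid bodies of the line whose NSD1 carries the tag, which share no library with them. In the EBs 1030 of 15236 genes were called (6.76%), 606 higher and 424 lower, with edgeR. With the EB replicate number as a block 1834 genes were called. The count was 301, 182 and 1293 without EB nontreated replicate 1, 2 or 3. Without EB dTAG-13 replicate 1, 2 or 3 it was 184, 395 and 1148. Of the 1030 genes 771 were tested in wild-type stem cells, where 0 were called and 32 had an unadjusted p below 0.05. That is 3.88% of those that rose in EBs and 4.56% of those that fell, against 1.66% of all tested genes. The share over all genes depended on level, with 4.10% under 1 CPM, 2.85% from 1 to 10 CPM and 0.916% from 10 to 100 CPM. Levels were not matched here, so the shares cannot be compared directly. The direction was the same in both comparisons for 351 of the 771 genes, a count without spike-in scaling. These were 196 of the 464 that rose in EBs and 155 of the 307 that fell. The median absolute log2 fold change of the 771 genes was 0.93 in EBs and 0.08 in wild-type stem cells. The wild-type 95% interval excluded the EB estimate for 751 of the 771 genes (97.4%), 448 of 464 that rose in EBs and 303 of 307 that fell. With the block it did so for 1363 of 1486. The genes were chosen by their EB result and the EB estimate is taken as exact here, so these high shares are close to fixed. The test of the difference itself, given further on, called 234 of the 464 and 168 of the 307. Line, cell state, medium and exposure time differ between the comparisons and cannot be told apart.

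**Figure D5:**
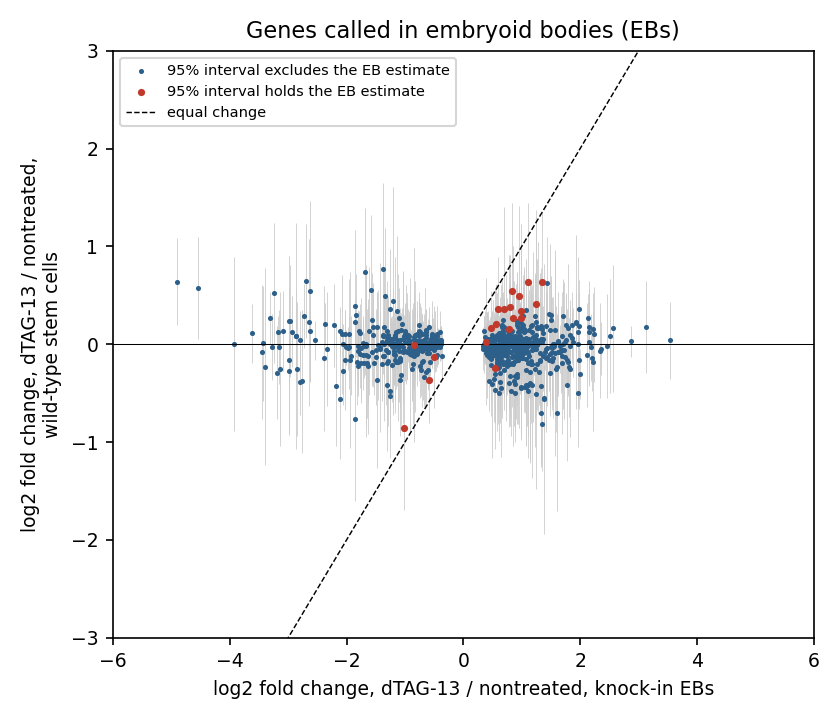
Log2 fold change with dTAG-13 in wild-type stem cells (vertical axis, gray bars 95% intervals) against that in embryoid bodies of the tagged line (horizontal axis) for 771 genes called in EBs and tested in both. Points gather around 0 on the vertical axis, and 751 intervals, in blue, exclude the EB estimate. The genes were chosen by their EB result, so a high number is close to fixed.

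Among genes with a mean of at least 1 CPM in wild-type cells, the 5 that fell furthest in EBs were Cdx2, Evx1, Pglyrp1, Sp5 and Tiam2. Cdx2 fell from 8.76, 11.7 and 4.99 CPM in nontreated EBs to 0.155, 0.296 and 0.387 CPM, a log2 fold change of -4.90 ± 0.48 (SE). In wild-type stem cells its estimate lay on the other side of 0, at 0.64. Evx1 fell from 17.8, 35.4 and 12.5 CPM to 0.928, 1.66 and 0.194 in EBs, a log2 fold change of -4.54 against 0.58 in wild-type cells. Pglyrp1, a peptidoglycan recognition gene, fell by 3.62 on the log2 scale in EBs and had 0.11 ± 0.13 (SE) in wild-type cells. Sp5 and Tiam2, a RAC exchange factor that overlaps Tfb1m on the opposite strand, fell by 3.31 and 3.28. T had -4.06 in EBs, with an adjusted p of 0.0526 (edgeR) without the block and 0.0132 with it.

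Of the genes that rose in EBs, Lrmp went from 2.07, 2.43 and 2.82 CPM to 19.2, 19.6 and 15.1, a log2 fold change of 2.88 ± 0.17 (SE). In wild-type stem cells it was at 21.9, 22.4 and 21.9 CPM nontreated and 22.0, 23.7 and 21.9 with dTAG-13, a log2 fold change of 0.03 ± 0.07 that excluded changes beyond 1.14-fold. Tsga10ip and Gpnmb rose by 3.53 and 3.13 in EBs against 0.04 and 0.18 in wild-type cells. Hormad2, a meiotic axis protein gene, rose by 2.52 and Nxf3, an mRNA export factor gene, by 2.35, against 0.09 and -0.04. Lrmp overlaps Casc1 on the opposite strand.

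The difference between both dTAG-13 effects was tested as an interaction over the 12 libraries. It was called for 456 of 15855 genes (2.88%), 254 with a more positive effect in EBs and 202 with a more negative one. Of the 1030 genes called in EBs, 412 were among them. The count rests on the libraries: it was 101 without wild-type nontreated replicate 1 and dTAG-13 replicate 3, and from 202 to 274 without any single wild-type library. It was 238 without EB nontreated replicate 2, 260 without EB dTAG-13 replicate 1 and 763 without EB nontreated replicate 3. The count of EB-called genes whose estimate the wild-type interval excluded was 234 and 141 without EB nontreated replicates 1 and 2, and 146 and 305 without EB dTAG-13 replicates 1 and 2, where 236, 141, 146 and 306 were tested. These genes were chosen for a large EB estimate, which the comparison with the wild-type interval takes as exact, so a high share is close to fixed by that choice.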

How the data were processed

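Poly(A) RNA was measured in wild-type mouse embryonic stem cells, 3 libraries with dTAG-13 and 3 without, and in 6 embryoid body libraries of the tagged line. As deposited by the authors, each library has a table of unnormalised counts by gene. Tools listed in the submitters' processing notes are STAR, bcl2fastq 2.20.0.422 and DESeq2 1.30.0, with the builds mm10 and GRCm38.p6. Per the labels' protocols the kit keeps strand and ERCC Mix 1 was added to extracted RNA. How reads were counted is not given in the sources used here. Of 55471 gene IDs, 55230 matched GENCODE M21 (GRCm38), which gave names, positions and exon lengths. The other 241 stayed in the tests under their IDs. The 92 spike-ins stayed out of library sizes.

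The tests used edgeR 4.0.16 under R 4.3.3 (quasi-likelihood F test, TMM factors, filterByExpr, Benjamini-Hochberg, threshold 0.05), each comparison on its own libraries. Excluded folds came from 2 one-sided tests of the fitted log2 fold change with its SE and moderated degrees of freedom. The scripts were tested on simulated data. DESeq2 1.42.0 and limma-voom (limma 3.58.1) were alternatives, as were other scalings, no count filter, a gene-length offset (spline, 5 df), a replicate block and leaving out libraries. Python 3.11.15, pandas 2.3.3, numpy 2.4.6, scipy 1.17.1 and matplotlib 3.10.9 made tables and plots.

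The comparison, the 33 gene lists and the rule for names were chosen with earlier results of these data known. The rule took the degrader and pluripotency genes, 3 tested members of each list by CPM and p, the 8 smallest p in each direction at 1 CPM or more, the genes with the highest CPM and with the smallest and largest SD, those called without the libraries that stood apart, and the largest EB changes. Other genes in the text are ends of a list's range or were taken up after their values were seen. Of 156 genes given by the rule or taken up beside it, 46 share exonic sequence with an antisense gene and 16 with a gene of their own strand, so their counts are uncertain.

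Deviations of same-numbered EB libraries from their group means correlated at 0.24, 0.31 and 0.38, which was taken as pairing from the data, since the labels say nothing of it. Libraries of unlike number gave -0.32 to 0.21, the highest for nontreated 2 with dTAG-13 1. The pairing of numbers 1 and 2 is thus weakly set, and the main EB and interaction counts are from fits without the block. The wild-type numbers did not pair.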

Additional observations from a re-analysis of the deposited data

Results flagged for a closer look

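The effect of dTAG-13 differed between embryoid bodies and wild-type stem cells, by edgeR's test of the difference itself, for 456 genes. Values below are the EB log2 fold change minus that of wild-type cells. Some genes were named for small p-values or calls in wild-type cells, or for large changes in EBs, from these same libraries. That choice can enlarge their differences, and by how much was not tested. Line, cell state, medium and exposure time cannot be told apart in any of them.

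Among mesoderm and Wnt genes the difference was -5.55 for Cdx2, -5.13 for Evx1, -4.44 for T, -3.59 for Sp5, -1.48 for Axin2, -1.30 for Notum, which encodes a Wnt deacylase, and -1.68 for En2, an engrailed factor. That of T was called in 5 of 15 alternatives and that of Sp5 in 6, and those of Cdx2, Evx1, Axin2 and En2 in all 15. Among pluripotency genes it was -0.77 for Nanog and -1.17 for Klf4, and for the Nodal antagonist Lefty1 it was 1.57. For Rbbp7, a histone-binding PRC2 subunit, it was -0.47, called in 5 of 15 alternatives.

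Of germline and testis genes, Sycp3, of the synaptonemal complex, had 2.29, Hormad2 2.41, Tsga10ip 3.48 and Nxf3 2.38. Lrmp had 2.84 and Gpnmb, a lysosomal glycoprotein, 2.95. The differences of Sycp3, Hormad2, Tsga10ip, Lrmp and Gpnmb were called in all 15 alternatives. Pglyrp1 had -3.74 and Tiam2 -3.26, the latter called in 7 of 15.

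Of the genes with small unadjusted p-values or calls in wild-type cells, Casq2 had -1.03 and Msc, a muscle-lineage repressor, -1.31. Slc27a2, a fatty acid transporter, had 1.49, Trpv2, a cation channel, 1.93 and Mfng, a Notch glycosyltransferase, 1.13. Lars2 had 0.99 and the uridine phosphorylase gene Upp1 -1.52. Outside that set, the caspase gene Casp8 had 1.42 and the efflux pump gene Abcc4 1.01. Their unadjusted p-values in wild-type cells were 0.067 and 0.656 (edgeR). Those of Casq2, Mfng and Abcc4 were called in 4, 5 and 6 of 15 alternatives.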

How the results depend on the processing

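The count of 0 called genes in wild-type cells held under each alternative except the one without nontreated replicate 1 and dTAG-13 replicate 3, which called 16. Genes excluding a 2-fold change numbered 12852 to 13444 and those excluding 1.5-fold 10516 to 11520. The number of genes tested differed. Without the count filter it was 26558, of which 50.6% excluded a 2-fold and 42.7% a 1.5-fold change. In the other settings these shares were 92.4% to 96.8% and 75.0% to 83.6%. The count for 1.2-fold was 0 with ERCC scaling, with the replicate block and with ERCC scaling without these 2 libraries, 7350 with the gene-length offset and 8203 without the 2 libraries. Leaving out 1 library at a time gave 0 to 6116. The unadjusted 95% interval stayed inside 1.2-fold for 3791 genes with the replicate block, and for 0 with ERCC scaling of all 6 libraries. Why the count moved was not tested. Wild-type libraries of the same number correlated at -0.41, 0.34 and -0.35 in their deviations, so the numbers do not pair them, and the replicate block called 0 genes.

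For genes called in EBs, the wild-type interval excluded the estimate for 1363 with the replicate block and for 141 to 908 when 1 library was left out. Interaction calls numbered 101 without nontreated replicate 1 and dTAG-13 replicate 3, 475 with the replicate block and 202 to 763 without 1 library. The cause was not tested. Of 2340 values, for the 156 genes given by the naming rule or taken up beside it under 15 alternatives, 2324 stayed on their side of the threshold. The other 16 were those of the genes called without the 2 libraries. All genes called there were taken among the 156, and no other alternative called any gene. The split is therefore fixed by that choice and says nothing of stability. Relative to the main fit, the wild-type log2 fold change changed sign for 1 to 52 of the 156 genes, depending on the alternative. The 52 were found without dTAG-13 replicate 3, and 27 changed sign without both libraries. Limits were widest for genes under 1 CPM, where spread and counting error were not separated.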
